A study of Mus musculus with 15 samples.

Results

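The genes described here are 10 members of the TGF-β pathway, chosen by name: the ligand gene *Tgfb1*, the receptor genes *Tgfbr1* and *Tgfbr2*, the signal transducers *Smad2*, *Smad3* and *Smad4*, and the feedback genes *Smad7*, *Ski*, *Skil* and *Tgif1*. They are 10 of the 24690 entries in each library's table. Each member had 1 entry, which held no other gene, and all 10 passed the filter on low counts in every comparison below. RNA was sequenced from group 2 innate lymphoid cells (ILC2) of the intestinal lamina propria (LP) and from ILC2 precursors (ILC2p) of the bone marrow (BM), in 15 libraries.

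The LP ILC2s, gated as CD45+Lin-CD127+Sca-1+CD25+KLRG1+, came from C57BL/6-background Tgfbr2f/fER-Cre+ mice of 8 to 12 weeks. The 4 WT libraries were of mice given oil, and the 3 Tgfbr2-/- libraries were of mice given 1 mg tamoxifen per day for 5 days and sorted 1 day after the last dose. The donors of the ILC2p had the same age and the same treatment with oil or tamoxifen. The ILC2p, gated as CD45.2+Lin-CD127+α4β7+CD25+, came from irradiated CD45.1 hosts 6 weeks after transfer of CD45.1 marrow mixed with marrow of oil-treated (4 WT libraries) or tamoxifen-treated (4 Tgfbr2-/- libraries) Tgfbr2f/fER-Cre+ donors. All donors of these RNAs thus carried the floxed allele and ER-Cre, which acts in every tissue, and the Tgfbr2 deletion and the tamoxifen itself cannot be told apart. Each cell type was sorted in 2 experiments, of which each gave 2 libraries per genotype, except that experiment 2 of the ILC2s had 1 Tgfbr2-/- library. The labels do not say which libraries came from separate mice, so p-values measure the spread between libraries. Total counts on genes were 12167066 to 32114265 in ILC2s and 10957021 to 35961215 in ILC2p.

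TGF-β1 binds the type II receptor TβR2 (*Tgfbr2*), which recruits and phosphorylates the type I receptor TβR1 (*Tgfbr1*). TβR1 then phosphorylates SMAD2 and SMAD3, which enter the nucleus with SMAD4 and control target genes. SMAD7 blocks the type I receptor, SKI and SnoN (*Skil*) repress SMAD-bound genes, and TGIF1 is a homeodomain co-repressor of SMAD2. *Smad7* and *Skil* are themselves well-known transcriptional targets of TGF-β, so they form a feedback loop.

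Before the members are compared, the state of the ILC2p libraries has to be given. Levels are stated as CPM, counts per 1000000 counts of the library after TMM scaling. Of the genes that the remaining libraries of a cell type expressed at 50 CPM or more by median, 1.56% to 14.2% were under 1 CPM in an ILC2p library, against at most 0.0285% in an ILC2 library. This share was 14.2% in WT replicate 1 of experiment 1, 12.1% and 13.8% in the Tgfbr2-/- libraries of experiment 1, and 8.33% in Tgfbr2-/- replicate 2 of experiment 2. The other 4 ILC2p libraries were at 3.66% or less. Of the members' own values, whatever their level elsewhere, 15 of 80 in ILC2p and 0 of 70 in ILC2s were under 1 CPM. Of these 15, 4 were those of *Smad7* in the 4 Tgfbr2-/- libraries, including the library that missed 1.83% of genes. The largest number, 6 members, was under 1 CPM in Tgfbr2-/- replicate 2 of experiment 1 (*Tgfbr1*, *Smad3*, *Smad4*, *Smad7*, *Ski* and *Skil*).

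**Figure D1:**
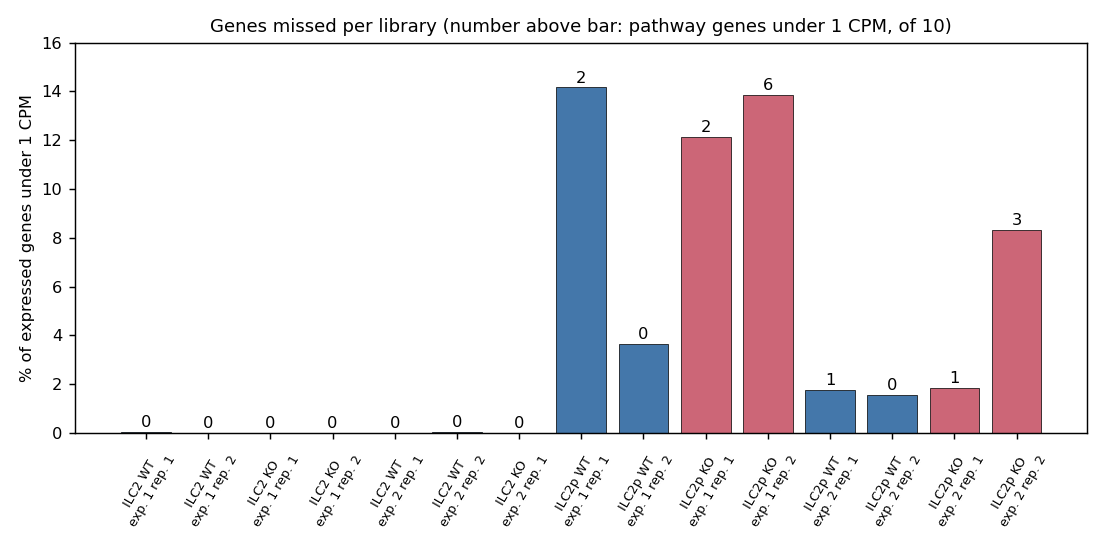
Percentage of genes under 1 CPM in the library shown (y axis), out of those whose median in the remaining libraries of the cell type reached 50 CPM, for the 15 libraries (x axis; blue, WT; red, Tgfbr2-/-). The number above each bar counts the pathway members under 1 CPM, which reached 6 of 10 in 1 ILC2p library and was 0 in each of the 7 ILC2 libraries.

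Transcripts that mark other cell types were also higher in the Tgfbr2-/- ILC2p libraries. The lineage antibodies of the study's ILC staining, which were used to remove such cells, included those against CD11b (*Itgam*), CD11c and Gr-1, and the source of these transcripts was not tested. The summed level of 7 neutrophil and monocyte markers was 63576 and 57925 CPM in experiment 1 and 55151 and 64819 CPM in experiment 2, against 737 to 1518 CPM in the 4 WT ILC2p libraries. Their most abundant gene was *S100a8* in all 4 Tgfbr2-/- libraries, at 23800 to 29610 CPM, and 5 of the 7 markers were called higher (*S100a8*, *S100a9*, *Lyz2*, *Mpo* and *Itgam*). Of 4 basophil and mast cell markers, 3 were called higher, and their sum was 1211 to 1585 CPM against 111 to 298 CPM in WT. Of 6 NK and ILC1 markers 4 were tested and *Gzma* was called higher. Over all genes tested in ILC2p, 2.61% were called higher and 0.866% lower. Of 10 ILC2p markers, 4 were called lower: *Gata3* (log2 fold change -1.41), *Id2* (-0.96), *Itgb7* (-1.05) and *Il1rl1* (-1.96). The sum of these 10 markers was 4773 to 6830.5 CPM in Tgfbr2-/- and 9613 to 14533 CPM in WT libraries. The defining markers of the labelled cells were thus present in every library, at a lower level in the Tgfbr2-/- ILC2p. In such bulk samples fewer cells of a type and less RNA per cell cannot be told apart.

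In WT ILC2s the members lay in a wide range of levels per transcript length (RPKM, reads scaled to transcript length and sequencing depth, over 4 libraries). *Tgif1* was highest at 172 ± 32.2 RPKM (SD), and its lowest library, at 149 RPKM, was above every library of every other member. *Tgfbr2* (45.5 ± 10.9 RPKM), *Smad3* (45.0 ± 8.49 RPKM) and *Skil* (39.8 ± 20.4 RPKM) followed, and their ranges overlapped. *Smad7* (11.4 ± 5.504 RPKM), *Ski* (9.999 ± 2.71 RPKM), *Smad2* (7.09 ± 2.72 RPKM) and *Smad4* (6.13 ± 1.03 RPKM) came next. *Tgfb1* was at 5.61 ± 1.98 RPKM and *Tgfbr1* was the lowest at 2.28 ± 1.24 RPKM. Apart from *Tgif1* and *Tgfbr2*, all neighbours in this order had overlapping ranges over the 4 libraries. By mean ± SD, *Skil* and *Smad7* as well as *Tgfb1* and *Tgfbr1* also lay apart. The mRNA of the ligand-binding chain TβR2 was therefore above that of the signalling chain TβR1 in all 4 libraries, 36.1 to 57.9 RPKM against 0.523 to 3.44 RPKM.

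WT ILC2p had the same 3 genes at the top by mean, *Tgif1* (35.6 ± 14.9 RPKM), *Tgfbr2* (33.4 ± 26.3 RPKM) and *Smad3* (27.5 ± 18.5 RPKM). At the bottom were *Tgfb1* (6.82 ± 7.42 RPKM), *Tgfbr1* (5.92 ± 7.31 RPKM) and *Smad7* (3.80 ± 2.11 RPKM). The ranges of all neighbours in the ILC2p order overlapped. *Tgfbr2* ranged from 0.146 to 59.1 RPKM in these 4 libraries and *Tgfbr1* from 0.0894 to 15.5 RPKM, the lowest being replicate 1 of experiment 1 for *Tgfbr2* and replicate 1 of experiment 2 for *Tgfbr1*.

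**Figure D2:**
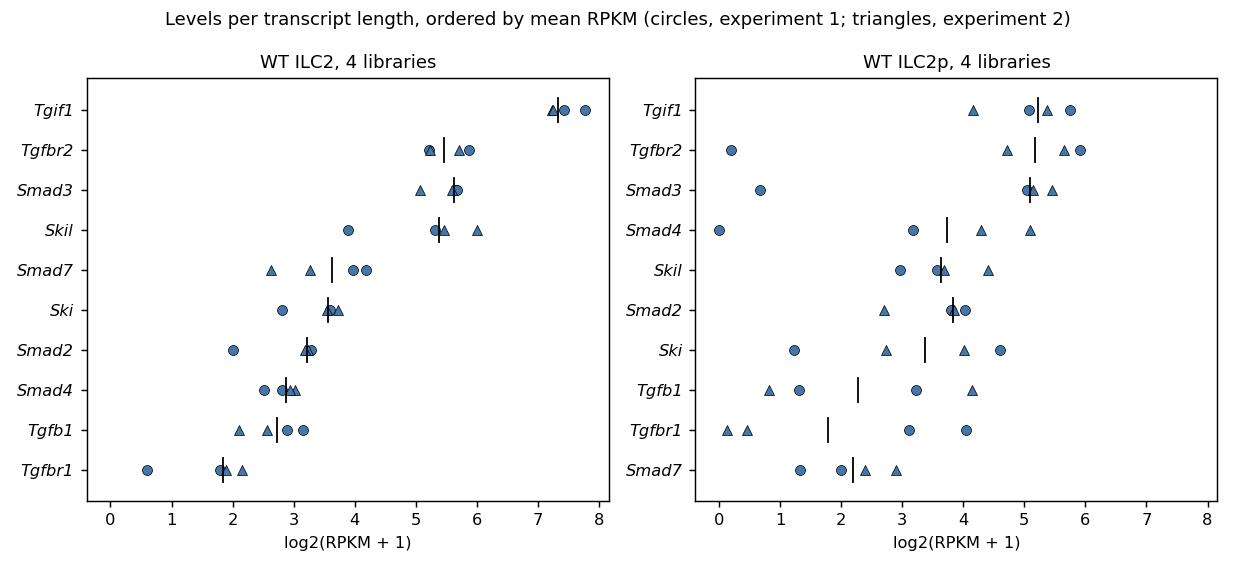
Level per transcript length, as log2(RPKM + 1) (x axis), of the 10 members in the 4 WT ILC2 libraries (left) and the 4 WT ILC2p libraries (right), ordered by mean RPKM; circles are experiment 1, triangles experiment 2, and the line is the median. *Tgif1* stands above the other members in ILC2s, and the points of most members spread further in ILC2p.

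The members lie on 6 chromosomes of the mouse genome (NCBIM37, mm9), all as protein-coding genes. *Tgfbr2* is at chr9:115993415-116084383 on the minus strand, *Smad3* at chr9:63494574-63605801 on the minus strand and *Tgfbr1* at chr4:47366094-47427803 on the plus strand. *Tgif1*, at chr17:71193545-71202886 on the minus strand, is the only member called between the cell types. One of its 5 promoter windows in RefSeq (GRCm38.p6) is shown because it holds 2 copies of CAGAC, the core of the SMAD-binding element, read on either strand as CAGAC or GTCTG. It covers 250 bases before and 50 after a transcription start, chr17:70851685-70851984 on the minus strand, and the capitals mark the matches, which begin at positions -191 and -59 from that start.
*Tgif1* promoter window: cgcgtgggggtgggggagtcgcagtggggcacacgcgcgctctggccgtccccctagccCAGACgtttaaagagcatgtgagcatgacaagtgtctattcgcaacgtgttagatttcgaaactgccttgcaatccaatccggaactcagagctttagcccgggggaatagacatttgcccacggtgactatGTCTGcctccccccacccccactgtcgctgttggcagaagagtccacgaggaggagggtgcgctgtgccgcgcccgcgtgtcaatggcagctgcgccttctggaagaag
The motif was in 3 of the 5 *Tgif1* windows, 1 of 2 *Tgfbr1* windows and the single *Tgfbr2* window, and in none of the single windows of *Tgfb1*, *Smad3* and *Ski*. It is a frequent one, held by 49.6% of the 32851 windows of all genes. Its palindrome GTCTAGAC was in 0.213% of all windows.

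Whether loss of TβR2 changes the pathway in mature ILC2s was asked first, with the targeted gene. In experiment 1 *Tgfbr2* had levels of 172 and 262 CPM in WT, compared with 206 and 184 CPM in Tgfbr2-/- libraries. In experiment 2 the WT levels were 149.7 and 207 CPM, and the Tgfbr2-/- level was 96.6 CPM. The Tgfbr2-/- library of experiment 2 was below all others, and the genotypes overlapped in experiment 1. The log2 fold change was -0.46 ± 0.24 (SE, edgeR's quasi-likelihood test, Benjamini-Hochberg adjusted p = 0.898). The counts cover the full transcript, including exons outside the floxed part, so this level does not check the genotype and each library is named by its label.

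No member was called in ILC2s at an adjusted p under 0.1 and a fold change over 1.5, and neither was any other of the 11981 genes tested (0%). By edgeR's quasi-likelihood test 557 genes (4.65%) had an unadjusted p under 0.05. With the same filter DESeq2 called 338 genes and limma 0, and neither called a member. The members' median log2 fold change was -0.24 (all genes, -0.01), with 3 values above 0 and 7 below. The genotypes did not overlap within either experiment for 2 members, *Smad7* and *Skil*, both lower in Tgfbr2-/-, beside 5.58% of all genes that were lower in this way. No member was higher without overlap, beside 7.11% of all genes.

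*Smad7*, which encodes the inhibitory SMAD, had 76.9 and 62.8 CPM in the WT ILC2s of experiment 1, and 23.7 and 34.6 CPM in the Tgfbr2-/- ILC2s. The corresponding WT libraries of experiment 2 had 20.04 and 32.7 CPM, and the Tgfbr2-/- library had 14.6 CPM. Each Tgfbr2-/- library was below each WT library of its experiment, but both WT libraries of experiment 2 were below the higher of the Tgfbr2-/- libraries of experiment 1, and 1 of them was below both. The log2 fold change was -1.13 ± 0.36 (SE), which did not pass (edgeR's quasi-likelihood test, adjusted p = 0.898, and 0.133 to 1 over all alternatives). It was -1.28 in experiment 1 alone and -0.82 in experiment 2 alone, and -1.30 to -0.95 with any 1 library left out. Exact permutation of genotype labels inside each experiment (two-sided, 18 arrangements) gave p = 0.111, where the smallest possible is 0.0556.

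*Skil*, which encodes the co-repressor SnoN, had 98.5 and 259 CPM in the WT ILC2s of experiment 1, against 88.7 and 93.8 CPM in Tgfbr2-/-. The values of experiment 2 were 383 and 257 CPM for WT and 190.4 CPM for Tgfbr2-/-. Here too no Tgfbr2-/- library reached a WT library of its experiment, although WT replicate 1 of experiment 1 was only slightly above both Tgfbr2-/- libraries. The log2 fold change was -0.90 ± 0.32 (SE; edgeR's quasi-likelihood test, adjusted p = 0.898), it was -1.13 to -0.45 with 1 library left out, and the exact permutation p was 0.0556, the smallest possible. The remaining feedback genes were close to 0, with log2 fold changes of 0.09 ± 0.42 for *Ski* and -0.20 ± 0.27 for *Tgif1*.

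The transducers differed by less than the spread between libraries. *Smad2*, *Smad3* and *Smad4* had log2 fold changes of -0.29 ± 0.42, -0.24 ± 0.24 and -0.24 ± 0.78 (SE). *Smad4* was at 15.2 to 20.6 CPM in the 4 WT libraries and at 26.0, 2.37 and 19.1 CPM in the 3 Tgfbr2-/- libraries, so 1 Tgfbr2-/- library of experiment 1 stood far below the rest. *Tgfbr1* was at 2.84 to 16.9 CPM in WT and at 11.8 to 22.1 CPM in Tgfbr2-/- ILC2s (0.48 ± 0.71). *Tgfb1* had 27.8 and 23.9 CPM in Tgfbr2-/- ILC2s against 13.5 and 15.8 CPM in WT in experiment 1, but 3.86 CPM against 5.97 and 8.73 CPM in experiment 2. The ligand gene thus went in opposite directions in the 2 experiments, 0.80 and -0.89 on the log2 scale.

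Markers of other cells were highest in the Tgfbr2-/- ILC2 library of experiment 2 for the NK and ILC1 list and for the epithelial list. The NK and ILC1 sum, with *Gzma* its most abundant gene, was 293, 497 and 944 CPM in Tgfbr2-/- and 218 to 392 CPM in WT. The epithelial sum was 43.7, 33.8 and 901 CPM in Tgfbr2-/- and 6.74 to 344 CPM in WT. Other lists were highest in WT libraries. In WT replicate 2 of experiment 2 the stroma and endothelium sum was 230 CPM, against 8.90 to 47.1 CPM in the other ILC2 libraries. Its neutrophil and monocyte sum was 129.6 CPM, against at most 9.46 CPM in the others. The B cell, T cell, basophil and mast cell, and ILC3 sums were also highest in WT libraries. The part of these transcripts in the members' values was not tested.

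**Figure D3:**
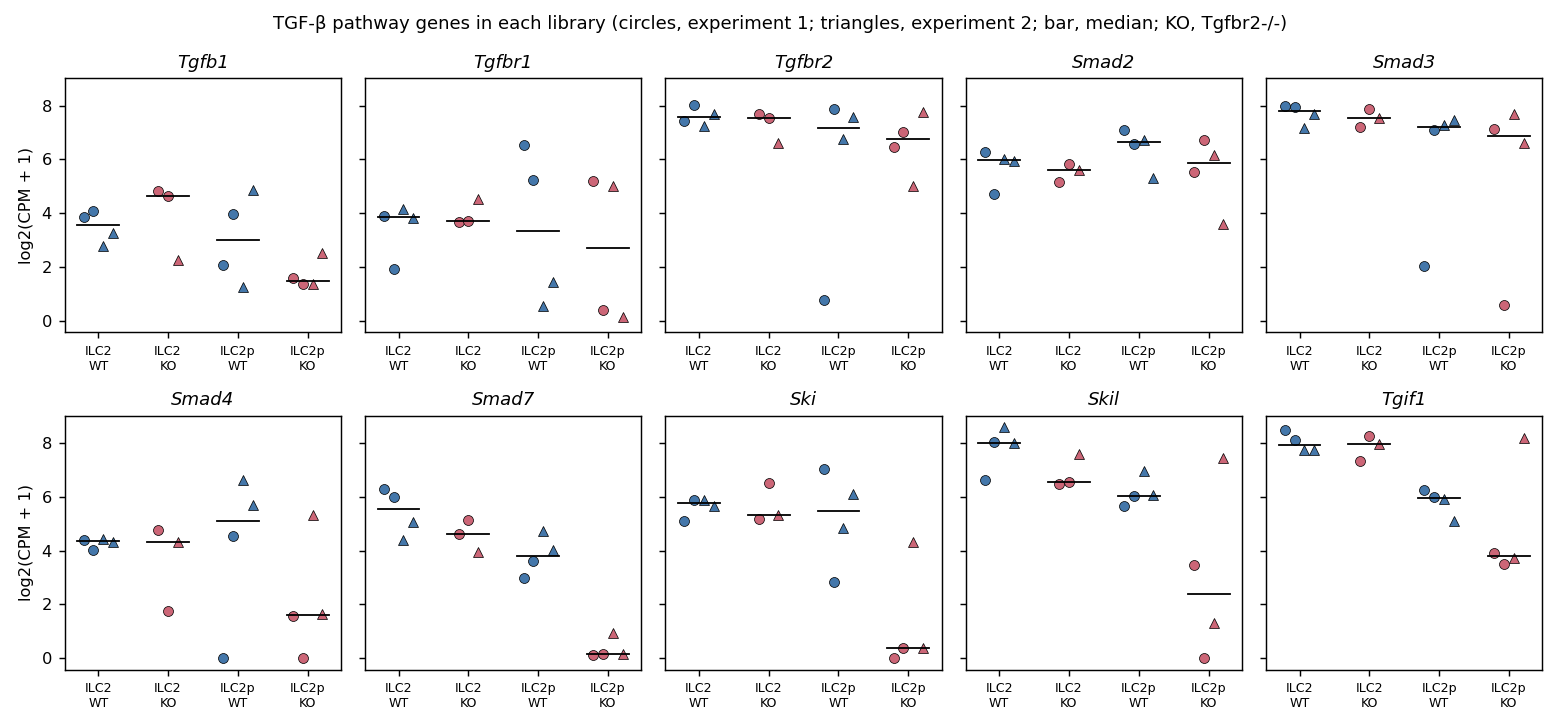
Level of each member as log2(CPM + 1) (y axis) in every library of the 4 groups (x axis; KO, Tgfbr2-/-; circles, experiment 1; triangles, experiment 2; bar, median). *Smad7* is at or under 0.937 CPM in all 4 Tgfbr2-/- ILC2p libraries and at 6.87 CPM or more in WT ILC2p, and *Skil* and *Tgif1* each have 1 high Tgfbr2-/- ILC2p library.

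In the BM precursors the feedback gene *Smad7* was nearly absent from the Tgfbr2-/- libraries. It had 1 read in each Tgfbr2-/- library of experiment 1 and 22 and 3 reads in those of experiment 2, that is 0.0993, 0.104, 0.937 and 0.116 CPM. The WT libraries had 77 and 192 reads in experiment 1 and 909 and 626 reads in experiment 2, that is 6.87, 11.2, 25.7 and 15.2 CPM. Every Tgfbr2-/- library was below every WT library, in both experiments.

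The pooled *Smad7* level of Tgfbr2-/- ILC2p was 1.07% of that of WT in experiment 1 (95% exact interval 0.129% to 3.91%) and 2.53% in experiment 2 (1.63% to 3.75%). These intervals cover counting error only. The fitted log2 fold change was -5.81 ± 1.59 (SE), and it missed the threshold in edgeR's quasi-likelihood test (adjusted p = 0.132), while DESeq2 (adjusted p = 0.00414) and limma on log2(RPKM + 1) (adjusted p = 0.0783) called it. Over all alternatives the adjusted p was 0.00414 to 0.491. The exact permutation p was 0.0556 over 36 arrangements, the smallest possible.

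*Smad7* was also set against 4 genes of the sort gate, those for CD127, the chains of α4β7 and CD25, and they are called the gate genes below. *Ptprc*, the gene of the pan-leukocyte marker CD45 that is also in the gate, was left out of their sum and was at 0.19 ± 0.36 on the log2 scale (edgeR's quasi-likelihood test, adjusted p = 0.952). The summed level of *Il7r*, *Itga4*, *Itgb7* and *Il2ra* was 2677 to 3798 CPM in WT and 1326 to 1838 CPM in Tgfbr2-/- ILC2p. Per 1000 CPM of these genes, *Smad7* had WT values of 1.81, 4.14, 7.57 and 5.67 CPM and Tgfbr2-/- values of 0.0749, 0.0714, 0.655 and 0.0632 CPM. The genotypes did not overlap on this scale either. With libraries scaled to the gate genes, which moved the median log2 fold change of all genes from -0.10 to 0.99, *Smad7* was at -4.71 (edgeR's quasi-likelihood test, adjusted p = 0.12). With only the 4 ILC2p libraries that missed under 5% of genes, of which 1 was Tgfbr2-/-, it was at -4.52 (adjusted p = 0.491), where the lone Tgfbr2-/- library is assumed to vary like the WT libraries. Whether the gate genes come from ILC2p alone, at an unchanged level per cell, was not tested. Neither was the part of the neutrophil and basophil transcripts in the *Smad7* difference on either scale.

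**Figure D4:**
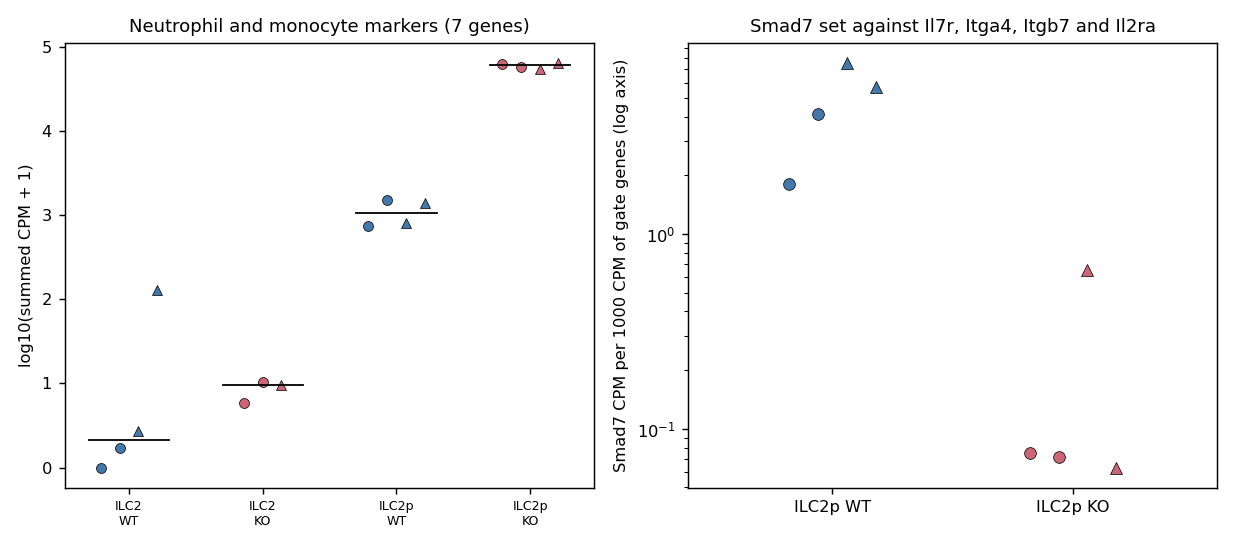
Left, summed level of 7 neutrophil and monocyte markers as log10(summed CPM + 1) (y axis) in each library of the 4 groups (KO, Tgfbr2-/-; circles, experiment 1; triangles, experiment 2; bar, median), where the 4 Tgfbr2-/- ILC2p libraries are at 55151 to 64819 CPM. Right, *Smad7* CPM per 1000 CPM of 4 sort-gate genes (log axis) in ILC2p, at 1.81 or more in WT and 0.655 or less in Tgfbr2-/- libraries.

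Across all genes, 321 of 9242 tested in ILC2p (3.47%) were called, 241 higher (2.61%) and 80 lower (0.866%), and no member was among them; 9.71% had an unadjusted p under 0.05. Leaving out any 1 library gave 179 to 319 calls, the lowest count being 161 higher and 18 lower. With libraries scaled to the gate genes 664 were higher and 61 lower. The members' median log2 fold change was -1.29 (all genes, -0.10), with 9 values below 0. Scaled to the gate genes it was -0.19 (all genes, 0.99), with 5 values below 0 and 5 above. On the CPM scale, complete separation of the genotypes within both experiments, lower in Tgfbr2-/-, was found for *Smad7* and *Ski*, beside 5.94% of all genes, and in the higher direction for no member, beside 8.06%.

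*Ski*, the co-repressor gene, had 131 and 6.16 CPM in the WT ILC2p of experiment 1, where the Tgfbr2-/- libraries had 0 and 0.311 CPM. Its values in experiment 2 were 27.7 and 67.3 CPM for WT and 18.8 and 0.310 CPM for Tgfbr2-/-. By CPM the Tgfbr2-/- libraries were the lower ones in each experiment, but 1 of them exceeded a WT library of the other experiment. Per 1000 CPM of the gate genes the separation was lost in experiment 2, where that library had 13.1 CPM and WT replicate 1 had 8.16 CPM, and the gate-scaled log2 fold change was -4.23 ± 2.81. The log2 fold change was -5.40 ± 2.78 (SE; edgeR's quasi-likelihood test, adjusted p = 0.667; DESeq2, adjusted p = 0.019), and it ranged from -8.10 to -3.56 with 1 library left out. Of the 4 Tgfbr2-/- libraries, 3 had 8 *Ski* reads or fewer.

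*Skil* had 49.1 and 63.7 CPM in the WT ILC2p of experiment 1, where the Tgfbr2-/- libraries had 10.1 and 0 CPM. Its values in experiment 2 were 125 and 66.4 CPM for WT and 1.45 and 173 CPM for Tgfbr2-/-. The last of these libraries was the highest of all 8, and the other 3 Tgfbr2-/- libraries were below all WT libraries. *Tgif1* had the same pattern, with WT levels of 75.0, 62.5, 60.2 and 33.3 CPM and Tgfbr2-/- levels of 13.9, 10.3, 12.3 and 289 CPM. The library with the high values of both genes was Tgfbr2-/- replicate 2 of experiment 2. Without it the log2 fold changes were -4.38 for *Skil* and -2.28 for *Tgif1*, in place of -1.85 ± 1.94 and -0.45 ± 1.47 (SE). With all libraries the mean of *Tgif1* was higher in Tgfbr2-/- (81.4 CPM) than in WT (57.8 CPM), and its log2 fold change was 0.40 without the experiment term and 0.59 scaled to the gate genes. Neither gene passed edgeR's quasi-likelihood test or any alternative. Over all alternatives, DESeq2 and limma included, the adjusted p was at least 0.224 for *Skil* and 0.511 for *Tgif1*.

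The receptors and transducers varied as much within as between genotypes in ILC2p. *Tgfbr2* had WT levels of 0.714, 233, 107 and 188 CPM and Tgfbr2-/- levels of 87.4, 130.1, 30.9 and 219 CPM. The groups overlapped, the lowest value being that of WT replicate 1 of experiment 1, which also missed the most genes, and the log2 fold change was -0.21 ± 1.21 (SE). *Tgfbr1* was at 0.453 to 91.5 CPM in WT and 0.116 to 35.3 CPM in Tgfbr2-/- ILC2p (0.97 ± 2.96), with a change of sign between the experiments. *Smad3* was at 3.12 to 176 CPM in WT and 0.519 to 207 CPM in Tgfbr2-/- (-0.10 ± 1.34). *Smad4* was at 0 to 98.5 CPM in WT and 0 to 38.9 CPM in Tgfbr2-/- (-2.69 ± 2.16), where the 0 reads of 1 library of each genotype allow up to 0.268 and 0.311 CPM. *Smad2*, at 38.9 to 135 CPM and 11.2 to 104 CPM (-0.73 ± 0.85), was above 10 CPM in all 8 libraries. *Tgfb1* had WT levels of 3.21, 14.7, 1.41 and 28.4 CPM and Tgfbr2-/- levels of 1.99, 1.56, 1.58 and 4.72 CPM (-2.32 ± 1.46). None of these 6 genes passed edgeR's quasi-likelihood test, with adjusted p from 0.783 to 0.996. With 1 library left out, *Smad4* was at -4.12 to -0.44, *Smad2* at -1.36 to -0.36 and *Tgfb1* at -2.71 to -1.22.

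**Figure D5:**
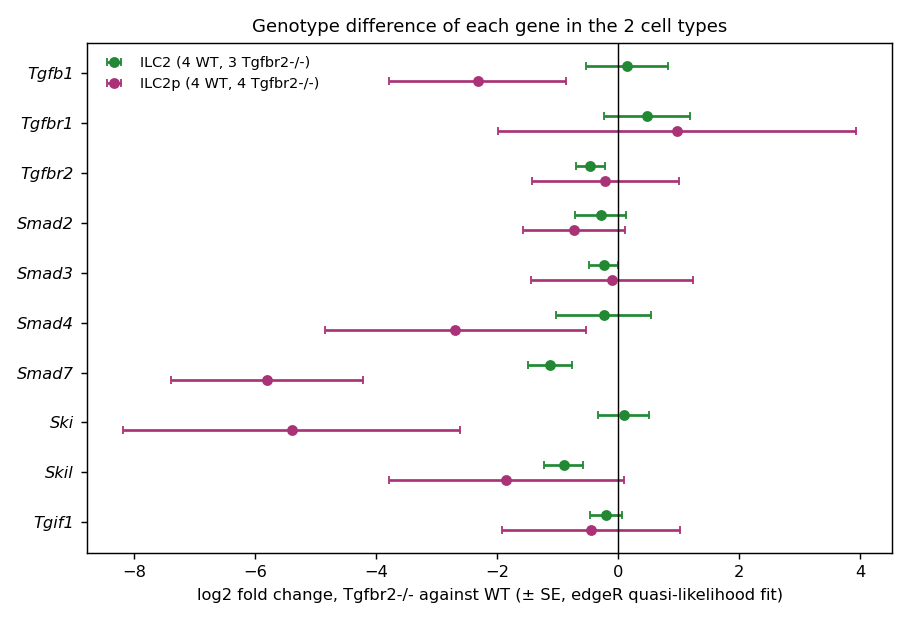
Log2 fold change of Tgfbr2-/- against WT (x axis, ± SE from edgeR's quasi-likelihood fit) for each member (y axis) in ILC2 (green) and ILC2p (purple). *Smad7* is the member farthest below 0 in both cell types, at -1.13 and -5.81, and the error bars of every member are wider in ILC2p than in ILC2.

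A single fit with all 15 libraries asked if the genotype difference was another one in ILC2p than in ILC2s. The ILC2s were sorted 1 day after the last dose, and the ILC2p 6 weeks after transfer into irradiated hosts. Cell type, tissue, host, experiment and time since treatment thus cannot be told apart in this fit. The part of the neutrophil and basophil transcripts of the Tgfbr2-/- ILC2p in it was not tested. Of 12806 genes, 127 (0.992%) were called, 67 with a larger and 60 (0.469%) with a smaller value in ILC2p, or 65 and 131 when libraries were scaled by size only. The count was 14 to 407 with any 1 library left out. No member was called. *Smad7* had a difference of -4.68 ± 1.35 (SE; edgeR's quasi-likelihood test, adjusted p = 0.155), which was called without Tgfbr2-/- ILC2p replicate 1 of experiment 2 (-5.72, adjusted p = 0.0521) and by DESeq2 (adjusted p = 0.000843). *Ski* had a difference of -5.41 ± 2.62 (adjusted p = 0.436), called without the same library (-8.17, adjusted p = 0.0461). That library held most of the *Smad7* and *Ski* reads among the Tgfbr2-/- ILC2p.

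The 4 WT libraries of each cell type were then compared. Cell type, tissue, irradiated host and experiment cannot be told apart here. Markers of other cells moved with this comparison as well, since 4 of 5 tested neutrophil and monocyte markers and 2 of 3 tested basophil and mast cell markers were called higher in WT ILC2p. Their sums were 737 to 1518 CPM and 111 to 298 CPM in WT ILC2p, against at most 129.6 and 5.52 CPM in WT ILC2s. Called lower in WT ILC2p were 1 of 4 tested NK and ILC1 markers, 1 of 2 B cell markers and 1 of 3 ILC3 markers. The NK and ILC1 sum was 218 to 392 CPM in WT ILC2s and 0.446 to 37.4 CPM in WT ILC2p. The B cell sum was 61.0 to 84.9 CPM and 0.707 to 42.0 CPM. The ILC3 sums overlapped, at 21.4 to 494 CPM and 19.3 to 108 CPM. The part of all these lists in the members' values was not tested. Of 10468 genes, 268 (2.56%) were called, 77 higher (0.736%) and 191 lower (1.82%) in ILC2p, and 1 member was among them; 9.39% had an unadjusted p under 0.05. The count was 95 to 370 with any 1 library left out. *Tgif1* had 361, 275, 215 and 215 CPM in WT ILC2s and 75.0, 62.5, 60.2 and 33.3 CPM in WT ILC2p. The groups lay far apart, with a log2 fold change of -2.21 ± 0.34 (SE; edgeR's quasi-likelihood test, adjusted p = 0.0151), and it was the only member with complete separation, beside 6.34% of all genes that were lower in this way and 4.05% that were higher. The call held with each WT library left out (-2.38 to -2.01). Between the Tgfbr2-/- libraries of the same cell types it was lost (-1.5, edgeR's quasi-likelihood test, adjusted p = 0.684), with 1 ILC2p library at 289 CPM.

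*Skil* was at 98.5 to 383 CPM in WT ILC2s and at 49.1 to 125 CPM in WT ILC2p (-1.73 ± 0.46, edgeR's quasi-likelihood test, adjusted p = 0.124). DESeq2 called it (adjusted p = 0.015), and so did edgeR without WT ILC2 replicate 1 of experiment 1, the lowest ILC2 library (-1.99, adjusted p = 0.0798). *Smad7* was at 20.04 to 76.9 CPM and at 6.87 to 25.7 CPM (-1.71 ± 0.76, adjusted p = 0.524), and it was called between the Tgfbr2-/- libraries of the cell types (-6.14, edgeR's quasi-likelihood test, adjusted p = 0.0427). These 3 feedback genes had the lowest fitted values of the members between the cell types, while *Ski* was at 0.22 ± 0.79. *Tgfbr2* and *Smad3* were at -0.58 ± 0.99 and -0.85 ± 0.81, and *Tgfbr1*, *Smad2* and *Smad4* at 1.47 ± 1.43, 0.71 ± 0.51 and 1.18 ± 1.37, none past the test.

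The experiments differed in ILC2s, where 117 of 11981 genes (0.977%) were called, 34 higher (0.284%) and 83 lower in experiment 2, or 13 and 10 when libraries were scaled by size only. With any 1 library left out 0 to 10 genes were called. No member was called by edgeR, and DESeq2 called *Tgfb1*, *Smad7* and *Skil*. *Tgfb1* and *Smad7* were lower in experiment 2 without overlap within either genotype, beside 11.8% of all genes, at -1.66 ± 0.69 and -1.27 ± 0.36 (SE; edgeR's quasi-likelihood test, adjusted p = 0.355 and 0.174). The *Smad7* gap between experiments was thus about as wide as that between genotypes. Epithelial markers moved with the experiments, their sum being 6.74 to 43.7 CPM in the 4 libraries of experiment 1 and 99.4, 344 and 901 CPM in the 3 of experiment 2, with *Krt8* the most abundant in the latter. ILC3 markers moved the other way, their sum being 494, 199, 237 and 265 CPM in experiment 1 and 42.1, 21.4 and 134 CPM in experiment 2, with 0 of 4 called. The part of either list in these values was not tested. In ILC2p 0 of 9242 genes (0%) were called between experiments by edgeR (288 at an unadjusted p under 0.05; DESeq2 called 397 and limma 0), and *Smad4* and *Smad7* were higher in experiment 2 without overlap, beside 5.3% of all genes.

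The rest of the pathway was described with 86 further genes. In ILC2s 0 of the 68 tested were called, with a median log2 fold change of -0.06. In ILC2p 3 of 49 tested were called (3.47% of all genes), with a median of -0.44 (all genes, -0.10). *Junb*, an AP-1 gene that TGF-β induces, was at 12592 to 23127 CPM in WT and at 5750 to 10433 CPM in Tgfbr2-/- ILC2p, without overlap (-1.15 ± 0.22, edgeR's quasi-likelihood test, adjusted p = 0.0269). Scaled to the gate genes, *Junb* was no longer called and the genotypes overlapped (-0.06 ± 0.12, adjusted p = 0.826), whereas the calls of the next 2 genes held on that scale. *Tgfbi*, a secreted matrix protein gene named for its induction by TGF-β, was at 0.357 to 0.764 CPM in WT and at 111 to 199 CPM in Tgfbr2-/- ILC2p (8.03 ± 0.99, adjusted p = 0.00241). *Thbs1*, whose product thrombospondin 1 can activate latent TGF-β, was at 0.218 to 0.714 CPM and at 139.5 to 299.6 CPM (8.35 ± 0.91, adjusted p = 0.00121). The difference between the cell types was also called for *Thbs1* (adjusted p = 0.0574). Monocytes are known to express both *Tgfbi* and *Thbs1*, and both were high in the 4 libraries with high neutrophil and monocyte markers, although the lineage gate was set to remove CD11b+ and Gr-1+ cells. The part of such cells was not tested.

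Of the SMAD adaptor, ubiquitin ligase and phosphatase genes 14 were tested in ILC2s and 11 in ILC2p, and 0 were called, and *Fkbp1a*, whose product holds the type I receptor inactive, was at 63.1 to 93.0 CPM in ILC2s and 67.1 to 149.8 CPM in ILC2p. Of 9 nuclear cofactors, 0 were called in either cell type. *Ncor1*, a co-repressor, had the values -0.45 ± 0.22 and -1.58 ± 0.61, and *Runx3*, a SMAD partner, -0.16 ± 0.23 and -0.56 ± 1.06, in ILC2s and ILC2p. Of 8 other receptors and coreceptors tested in ILC2s and 3 in ILC2p, 0 were called; *Bambi*, a pseudoreceptor, was at 53.0 to 106 CPM in WT ILC2s and at 104 to 139.8 CPM in Tgfbr2-/- ILC2s (0.48 ± 0.26). In ILC2p *Bambi* had WT levels of 0.179, 22.7, 44.0 and 21.3 CPM and Tgfbr2-/- levels of 0, 0, 3.45 and 0.232 CPM, with the genotypes apart within each experiment but not across them (-6.42 ± 2.59, edgeR's quasi-likelihood test, adjusted p = 0.435). The non-SMAD branches, with 16 genes tested in ILC2s and 15 in ILC2p, had medians of -0.02 and 0.12 and 0 calls, *Rhoa* being at -0.10 ± 0.20 and 0.24 ± 0.62.

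Between the WT cell types 4 of 57 further genes were called, all lower in ILC2p, beside 1.82% of all genes called lower and 0.736% called higher. *Furin*, the protease that cleaves the TGF-β precursor, was at 194.8 to 501 CPM in ILC2s and at 54.1 to 93.9 CPM in ILC2p (-2.18 ± 0.37, edgeR's quasi-likelihood test, adjusted p = 0.0249). *Cdkn1a*, a cell cycle inhibitor that TGF-β induces, was at 382 to 1442 CPM and at 43.3 to 268 CPM (-2.89 ± 0.67, adjusted p = 0.076), and *Bhlhe40* at 1877 to 2146 CPM and 968 to 1520 CPM (-0.87 ± 0.19, adjusted p = 0.0543). *Tgfb3*, another ligand gene, was at 3.10 to 14.96 CPM in WT ILC2s and had 0 reads in all 8 ILC2p libraries (adjusted p = 0.0475). *Furin* and *Cdkn1a* were also called between the experiments of ILC2s, lower in experiment 2 (-1.09 and -1.56).

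Over the 15 libraries, the genes whose log2(CPM + 1) followed a member most closely among the 7632 genes whose median reached 10 CPM were *Ifit1* (Pearson r = 0.89), *Gramd4* (0.87) and *Trnt1* (0.83) for *Tgfbr1*. For *Tgfbr2* they were *BC005624* (0.96), *Yaf2* (0.95) and *Srrt* (0.94), and for *Tgfb1* *Pde4dip* (0.87), *Plekhg5* (0.85) and *Aldh7a1* (0.84). The libraries share cell type, genotype and missed genes, and these values describe them only.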

How the data were processed

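The authors sequenced RNA of sorted LP ILC2s and BM ILC2p. Per the paper's methods the authors aligned the reads with tophat against mm9, and the submitters' notes also name Bowtie2. The deposited raw counts and RPKM come from rpkmforgenes on full RefSeq transcripts, without the parts shared by differently named genes. Whether counting used the strand is not given in the sources used here. RPKM were scaled by the authors to transcript length and depth.

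Counts were tested with edgeR 4.0.16 (R 4.3.3): TMM scaling, filterByExpr, a quasi-likelihood fit of genotype plus experiment, and Benjamini-Hochberg adjustment over all genes tested. A call needed an adjusted p under 0.1 together with a change over 1.5-fold. The SE is the absolute log2 fold change divided by the square root of F. Single genes were also tested by exact permutation on log2(CPM + 1). As alternatives, library size scaling, limma 3.58.1 (on log2 of RPKM + 1), DESeq2 1.42.0, no filter, no experiment term, a replicate block, Tgfbr2-/- in place of WT libraries and leaving out each library were tried. Scaling to gate genes, each experiment alone and the ILC2p libraries with few missed genes were chosen after seeing the data. The tests were also run on simulated data, of which no result is given here. A count of 3 reads, taken as the limit that 0 reads allow, equals 0.0728 to 0.311 CPM.

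All 10 members are named; of the other pathway genes, those called and up to 3 per list with the highest mean RPKM. The members and lists were chosen with earlier results of these data known. Gene positions are from GENCODE vM1. Promoters of chromosome 18 (*Smad2*, *Smad4* and *Smad7*) were not used here, and no *Skil* window was used either.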

Additional observations from a re-analysis of the deposited data

Results flagged for a closer look

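Dixon's criterion was applied to the CPM of 30 sets of 4 libraries (10 members in WT ILC2, WT ILC2p and Tgfbr2-/- ILC2p). It compares the highest and the lowest library with the rest. Chance meets it in about 1 set in 20 if the values are normally distributed. The CPM were not put on a log scale and their distribution was not tested. The number of sets that met the criterion therefore cannot be judged against this rate. The criterion was met by 6 sets. All were of Tgfbr2-/- ILC2p and in each the highest library stood apart. In replicate 2 of experiment 2 these were *Tgif1* at 289 CPM, *Skil* at 173 CPM and *Tgfb1* at 4.72 CPM. In replicate 1 of experiment 2 they were *Smad4* at 38.9 CPM, *Ski* at 18.8 CPM and *Smad7* at 0.937 CPM. Both libraries are of experiment 2, which holds the more deeply sequenced Tgfbr2-/- ILC2p libraries, with 24181422 and 31993992 counts against 11959679 and 10957021 in experiment 1. They missed 1.83% (replicate 1) and 8.33% (replicate 2) of expressed genes, against 12.1% and 13.8% in experiment 1.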

How the results depend on the processing

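Of the members' values under alternatives other than leaving out a library, 335 kept their direction and their side of the threshold, 34 changed sign, 10 became calls and 1 ceased to be one. None of the values that changed sign was a call, and the cause was not tested. The genes called for the genotype in ILC2, the genotype in ILC2p, its difference, the cell types, experiments in ILC2 and experiments in ILC2p numbered 338, 1229, 1502, 604, 1347 and 397 with DESeq2. Without the filter the counts were 3 (genotype, ILC2), 259 (difference), 176 (cell types), 320 (experiments, ILC2) and 5 (experiments, ILC2p). Limma called 382 (difference) and 436 (cell types), and scaling by library size 196 (difference) and 23 (experiments, ILC2). In ILC2p 725 genes were called with scaling to the gate genes, 38 in experiment 1 alone, 77 in experiment 2 alone and 25 in the libraries that missed under 5% of genes. The Tgfbr2-/- libraries gave 1575 calls between the cell types. Leaving out 1 library gave 0 (genotype, ILC2), 179 to 319 (ILC2p), 14 to 407 (difference), 95 to 370 (cell types), 0 to 10 (experiments, ILC2) and 0 (experiments, ILC2p) calls; where it left 1 library in an arm, that library was assumed to vary like the others.

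Same-numbered libraries did not deviate together (r = -0.046, -0.01 and -0.027). Noise between libraries can hide a shared origin, so these values cannot tell whether such libraries share more than a number. With the replicate block 0 genes were called in ILC2, 175 in ILC2p and 70 for the difference. It changed the sign of *Tgfbr1* (-2.43) and *Tgfbr2* (0.20) in ILC2p, and of *Tgfbr1* (-3.13) and *Smad3* (-0.03) in the difference.

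Other signs changed as follows. For the genotype in ILC2p these were *Tgfbr1* (limma, -0.54; no experiment term, -0.98; experiment 1 alone, -1.87), *Tgfbr2* (limma, 0.19; gate genes, 0.65), *Smad2* (gate genes, 0.44), *Smad3* (DESeq2, 0.06; gate genes, 0.93; few missed genes, 0.24) and *Tgif1* (no experiment term, 0.40; gate genes, 0.59; experiment 2 alone, 1.58). In experiment 2 of ILC2 alone *Tgfb1* was at -0.89, *Smad3* at 0.11, *Ski* at -0.42 and *Tgif1* at 0.25. For the difference these were *Tgfbr1* (limma, -1.03; no experiment term, -1.34), *Tgfbr2* (library size, -0.16), *Smad3* (limma, -0.32; library size, -0.20), *Skil* (no experiment term, 0.29) and *Tgif1* (no experiment term, 0.65). Between the cell types they were *Tgfb1* (limma, -0.30; Tgfbr2-/-, -2.83), *Smad4* (Tgfbr2-/-, -0.49) and *Ski* (limma, -0.27; Tgfbr2-/-, -3.43), and between ILC2 experiments *Ski* (limma, 0.10; library size, 0.07).

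Leaving out 1 library changed signs within these ranges. In the genotype comparison of ILC2 these were *Tgfb1* -0.10 to 0.78, *Smad2* -0.59 to 0.23, *Smad4* -1.23 to 0.23, *Ski* -0.42 to 0.45 and *Tgif1* -0.48 to 0.07. In that of ILC2p they were *Tgfbr1* -2.35 to 2.49, *Tgfbr2* -0.86 to 1.18, *Smad3* -1.68 to 1.10 and *Tgif1* -2.28 to 0.39, and in the difference *Tgfbr1* -2.83 to 1.98, *Tgfbr2* -0.43 to 1.65, *Smad3* -1.41 to 1.33 and *Tgif1* -2.10 to 0.65. Between the cell types they were *Tgfb1* -0.77 to 0.49 and *Ski* -0.58 to 0.60. Between experiments they were *Smad2* -0.15 to 0.69, *Smad4* -0.08 to 0.99 and *Ski* -0.39 to 0.20 in ILC2, and *Tgfb1* -0.38 to 1.28, *Tgfbr2* -0.44 to 1.62, *Ski* 0.00 to 4.50, *Skil* -0.12 to 3.03 and *Tgif1* -0.34 to 2.35 in ILC2p.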
